A study of Mus musculus with 16 samples.

Results

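Prostaglandin and leukotriene pathway genes were described in macrophages sorted from mouse pancreas. The set held 10 genes, Ptgs1, Ptgs2, Ptges, Hpgds, Ptger2, Ptger4, Alox5, Alox5ap, Alox15 and Ltc4s, of the 24440 genes tested, and all 10 passed the filter on dim probes. They were matched by the gene name that the scanner gave to each probe, and the brightest probe stood for a gene. Expression was measured on 16 Agilent arrays read in the red channel. The cells came from pancreatic tumor tissue (5 YFP+ and 5 YFP- samples) or from normal pancreas (3 YFP+ and 3 YFP- samples). The reporter was FLT3-CRE/LSL-YFP, in which YFP marks cells descended from Flt3-expressing blood progenitors. The series' text also names wild-type and KPC mice, but no label ties a genotype to a sample, and the genotype field is left unfilled. The labels give all mice as female C57/B6 animals aged 8 to 10 weeks, and speak of implanted tumors without naming the implanted cells. Each YFP+ sample shared a number in its title with a YFP- sample, and the labels do not say that a number is an animal, so p-values measure the spread between these samples. Each of 4 slides held 4 arrays.

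Arachidonic acid is freed from membrane lipids by phospholipases and then enters either of 2 main routes. Cyclooxygenases, encoded by Ptgs1 and Ptgs2, convert it to prostaglandin H2, from which terminal synthases make individual prostaglandins, such as prostaglandin E2 (Ptges) and D2 (Hpgds). The 5-lipoxygenase encoded by Alox5, with its membrane partner Alox5ap, starts the leukotrienes, and Ltc4s adds glutathione to form the cysteinyl leukotrienes. Macrophages are a main source of both kinds of lipid, and prostaglandin E2 acts back on them through the receptors encoded by Ptger2 and Ptger4.

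Levels are log2 processed signals relative to the 75th percentile of the same array, so 0 is the level of that percentile and negative values are dimmer. Differences are between group means on that log2 scale, ± SE from a limma fit over all 16 arrays, and a gene was called where its p, adjusted over all genes tested by the Benjamini-Hochberg method, was under 0.05. Levels of different genes were read by different probes and are not compared. Over the arrays that percentile lay between 2175 and 3409, and 64.9% to 75.4% of spots were well above background. All 11 macrophage markers listed (Csf1r, Adgre1, Cd68 and others) were well above background on every array, and their summed signal, in units of the array's 75th percentile, ran from 167 to 274 in tumor and from 180 to 367 in normal samples. Of the 11, 2 were called lower in tumor YFP+ than in normal YFP+ samples. In tumor YFP- against normal YFP- samples 1 was called higher and 1 lower.

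The 10 genes separated tumor from normal samples more than YFP+ from YFP- samples. Of all genes tested, too, more were called between tissues than between YFP+ and YFP- samples, so this is not particular to the 10. The genes and gene lists used here were chosen with earlier results of these data known. A called share set beside that of all genes therefore does not test whether a set stands out. Between tumor YFP+ and normal YFP+ macrophages, 4 of 10 were called, where 12.1% of all genes were: Ptgs2 and Alox15 rose in tumor (6.08% of all genes were called higher), and Alox5 and Hpgds fell (6.03% lower). Between tumor YFP- and normal YFP- macrophages, 3 of 10 were called, where 15.8% of all genes were: Ptgs2 and Alox15 rose (8.08% higher) and Hpgds fell (7.69% lower). None of the 10 was called between YFP+ and YFP- macrophages of either tissue by limma, where 2.39% of all genes were called in tumor and 0.0205% in normal pancreas. At an unadjusted p under 0.05, 0 of 10 passed in tumor and 2 of 10 in normal pancreas. In bulk samples such as these, fewer cells of a type and less RNA per cell cannot be told apart.

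**Figure D1:**
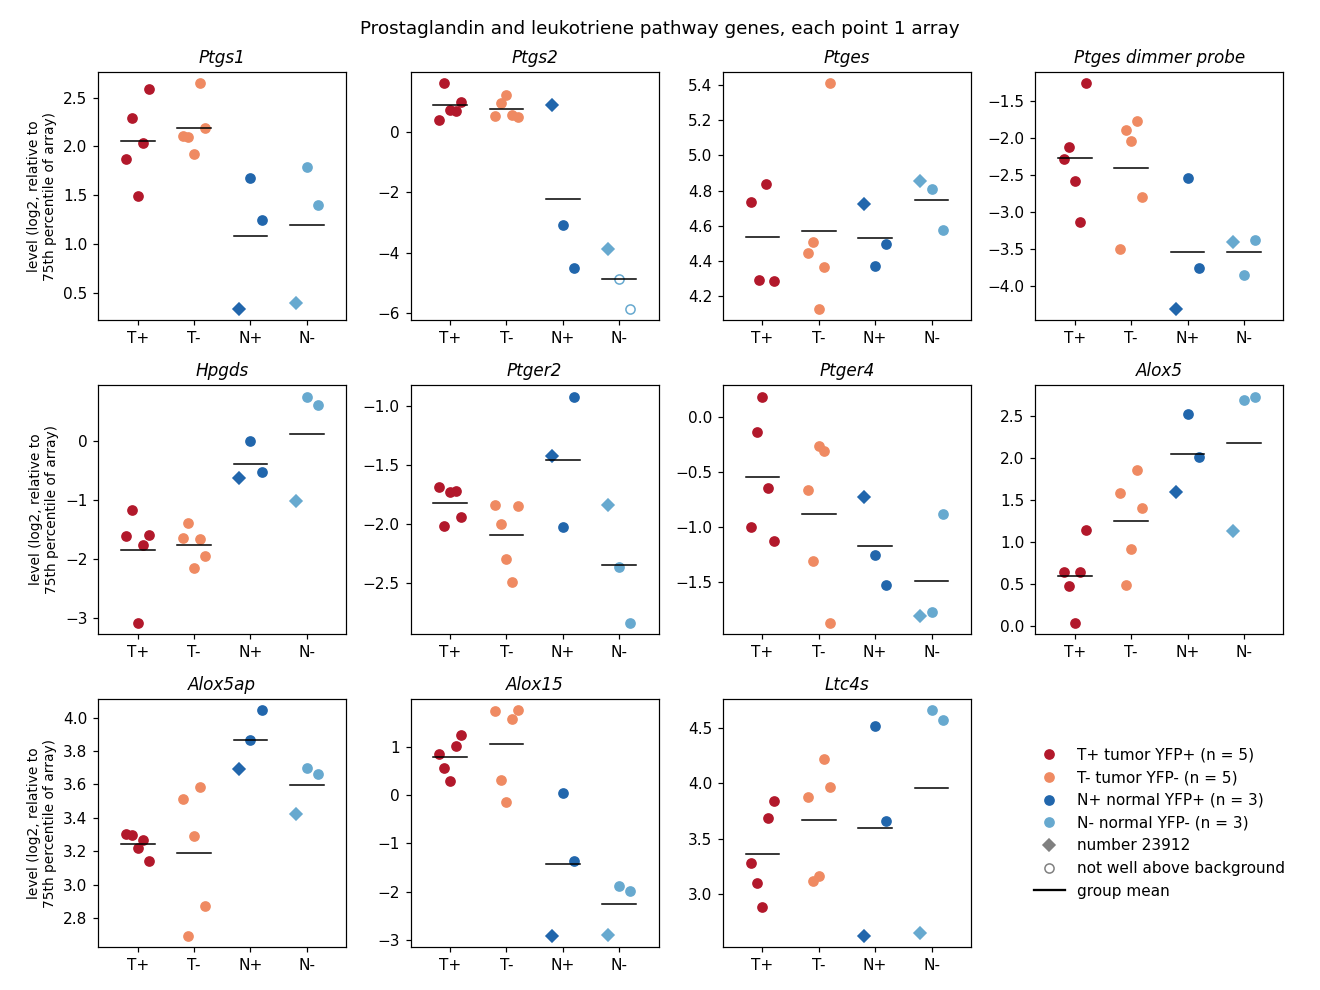
Level of each gene (log2, relative to the array's 75th percentile) on every array, by group; bars are group means, diamonds the samples numbered 23912 and open circles values not well above background. Ptgs2 sits between 0.40 and 1.61 on all 10 tumor arrays and at -3.10 or below on all normal arrays but the YFP+ array of number 23912, at 0.89.

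Of the cyclooxygenases, Ptgs2 encodes the inducible enzyme. Its probe was spotted 10 times on each array. Ptgs2 levels were 0.40, 1.61, 0.73, 0.67 and 0.98 in tumor YFP+ samples, and 0.54, 0.94, 1.22, 0.56 and 0.48 in tumor YFP- samples. Among normal samples, Ptgs2 was at 0.89, -3.10 and -4.50 in YFP+ and at -3.90, -4.87 and -5.87 in YFP- cells. The tumor samples were alike and high, the normal YFP- samples were all far lower, and the normal YFP+ samples were split, with number 23912 inside the tumor range. In normal YFP- samples the probe was well above background on 1 of 3 arrays, number 23912; on the other 2 arrays 4 and 0 of its 10 spots were, so the depth of the gap there is limited by background.

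Ptgs2 was 49.5-fold higher in tumor than in normal YFP- macrophages (5.63 ± 0.84, limma adjusted p = 3.7e-04), with no overlap between the groups. That fold rests in part on normal signals not well above background; with normexp background correction the difference was 3.73, still called. It was 8.66-fold higher in tumor than in normal YFP+ macrophages (3.12 ± 0.84, limma adjusted p = 0.025), and those groups overlapped. With normexp background correction the second difference was 2.39. Without the normal YFP+ sample 23912 it was 4.68; it was 1.99, with adjusted p = 0.154, without sample 23917, and 2.68, with adjusted p = 0.124, without sample 23916. It also missed the threshold without tumor YFP+ sample 23548 (2.93, adjusted p = 0.0529). Within slides that held both groups, the tumor YFP- minus normal YFP- difference was 4.38 to 6.82 on 3 slides, and the tumor YFP+ minus normal YFP+ difference was 0.091 to 5.23 on 3 slides.

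The neutrophil marker list, like Ptgs2, was higher on average in tumor than in normal samples. Its summed signal over 9 measured genes ran between 7.93 and 23.6 in YFP+ and between 14.4 and 45.1 in YFP- cells of tumors, and between 2.12 and 18.1 in YFP+ and 1.63 and 9.14 in YFP- cells of normal pancreas. Of these 9 genes, 4 rose in tumor YFP+ against normal YFP+ and 6 rose in tumor YFP- against normal YFP-. Within tumors the list's mean level was lower in YFP+ than in YFP- samples on all 4 slides (-2.01 to -0.52). Ptgs2 differed by -0.001 to 0.72 on these slides. Other lists rose too, among them 8 of 10 mast cell and 7 of 9 ductal and epithelial genes in YFP- cells. In YFP+ cells 5 of 8 B and plasma cell genes rose, while 9 of 10 acinar genes fell in either population. Normal YFP+ sample 23912, the sample with the high Ptgs2 level, had the highest neutrophil sum of the normal samples, at 18.1. It stood further apart in the T and NK cell list, at 29.7 against 4.82 to 7.56 in the other normal samples. The defining marker Ly6g did not pass the filter on dim probes. The part of neutrophils, T cells, NK cells or the cells of the other lists in the Ptgs2 result was not tested.

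Ptgs1, the constitutive cyclooxygenase gene, had levels of 1.87, 2.29, 1.50, 2.04 and 2.59 in tumor YFP+ and 2.11, 2.09, 1.92, 2.65 and 2.19 in tumor YFP- samples. In normal samples it was 0.33, 1.67 and 1.24 in YFP+ and 0.39, 1.78 and 1.40 in YFP- macrophages. Both samples numbered 23912 were lowest. The tumor YFP- samples were all above the normal YFP- samples, while in YFP+ macrophages tumor sample 23550 fell inside the normal range. The differences were 0.97 ± 0.35 in YFP+ (limma adjusted p = 0.0914) and 0.997 ± 0.35 in YFP- macrophages (limma adjusted p = 0.068), and neither was called.

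The 250 bases before the RefSeq transcript start of Ptgs2 and of Hpgds are shown because these genes differed in opposite directions between tissues. RefSeq promoter windows matched 8 of the 10 genes, on build GRCm38.p6. The windows lie at chr1:150099781-150100030 on the plus strand (Ptgs2) and chr6:65144731-65144980 on the minus strand (Hpgds), and capitals mark matches to the C/EBP motif TTGCNNAA.
Ptgs2: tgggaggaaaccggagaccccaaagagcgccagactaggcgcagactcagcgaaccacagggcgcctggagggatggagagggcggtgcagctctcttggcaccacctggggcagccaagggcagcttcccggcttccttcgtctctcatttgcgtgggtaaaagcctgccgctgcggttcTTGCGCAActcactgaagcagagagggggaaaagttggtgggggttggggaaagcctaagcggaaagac
Hpgds: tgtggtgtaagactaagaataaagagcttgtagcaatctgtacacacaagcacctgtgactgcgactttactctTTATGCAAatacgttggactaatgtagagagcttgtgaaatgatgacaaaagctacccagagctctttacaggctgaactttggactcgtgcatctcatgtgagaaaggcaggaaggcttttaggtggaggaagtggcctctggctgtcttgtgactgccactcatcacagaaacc
The match begins 69 bases before the start in Ptgs2, where its bases fit the motif on both strands. In Hpgds it begins 176 bases before the start, on the strand opposite to the gene. This motif was found in 9.56% of all 32851 windows of the same length. The other motifs searched on both strands were TATAA (22.8% of windows), CACGTG (6.02%), TGACG (17.8%) and the kappa B consensus (7.25%), and none of them was in either of these windows. The windows of the other 6 matched genes held none of the 5 motifs. Only these 250 bases were searched, so motifs farther upstream or past the RefSeq transcript start were not looked for.

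The terminal synthases gave a mixed picture. Hpgds, the hematopoietic prostaglandin D2 synthase, had levels of -1.62, -1.18, -3.08, -1.76 and -1.59 in tumor YFP+ and -1.65, -1.39, -2.15, -1.66 and -1.95 in tumor YFP- samples. In normal pancreas they were -0.63, -0.011 and -0.53 in YFP+ and -1.03, 0.74 and 0.61 in YFP- samples. All normal samples were above all tumor samples, with the normal YFP- sample 23912 (-1.03) nearest to them.

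Hpgds fell 3.65-fold in tumor YFP- against normal YFP- macrophages (-1.87 ± 0.43, limma adjusted p = 0.00808), and 2.74-fold in tumor YFP+ against normal YFP+ macrophages (-1.45 ± 0.43, limma adjusted p = 0.0389). The YFP- call was lost without normal YFP- sample 23916 (-1.55, adjusted p = 0.0574). The YFP+ call was lost without any of the 3 normal YFP+ samples (adjusted p = 0.0727 to 0.162), without any of 4 of the 5 tumor YFP+ samples (adjusted p = 0.0524 to 0.0655), with quantile normalization (adjusted p = 0.0609) and in the deposited normalized values (adjusted p = 0.0611), with the difference below 0 each time. Within slides, all 3 slides with both groups gave a lower tumor level in either population.

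Mast cells express Hpgds, and the mast cell marker list was higher in tumor. Of its 10 measured genes, 8 rose in tumor YFP- against normal YFP- and 2 rose in tumor YFP+ against normal YFP+; its summed signal was 16.3 to 65.0 in tumor YFP- and 1.55 to 5.50 in normal YFP- samples. Acinar genes fell with Hpgds: 9 of 10 fell in tumor in either population, from sums of 279 to 831 in normal samples to 3.53 to 14.4 in tumor samples. The part of mast cells or of acinar RNA in the Hpgds result was not tested.

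**Figure D2:**
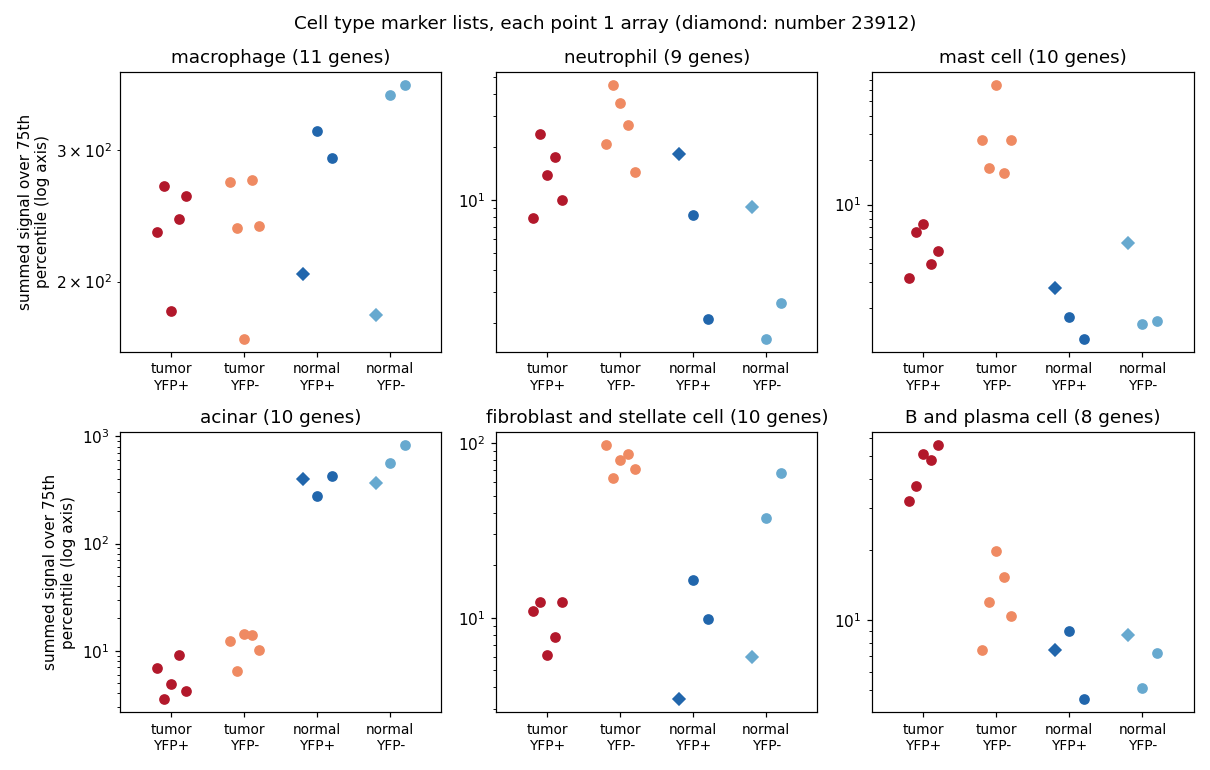
Summed signal of 6 marker lists on every array (log axis, in units of the array's 75th percentile), by group; diamonds are the samples numbered 23912. Acinar sums run from 279 to 831 in normal and from 3.53 to 14.4 in tumor samples, and mast cell sums are highest in tumor YFP- samples, from 16.3 to 65.0.

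Ptges encodes the inducible prostaglandin E2 synthase. Its 2 probes read different parts of the transcript and disagreed. The brighter probe, which starts at base 3583 of the transcript, lay between 4.12 and 5.41 on the 15 arrays that gave a value, with means of 4.53 and 4.57 in YFP+ and YFP- cells of tumors and 4.53 and 4.74 in those of normal pancreas. The spot on tumor YFP+ array 23550 was an outlier, so the fit dropped that array for this probe. Its tumor minus normal difference was 0.0076 ± 0.27 in YFP+ and -0.17 ± 0.26 in YFP- macrophages, and the 95% intervals ran from -0.57 to 0.59 and from -0.73 to 0.38. The dimmer probe, which starts at base 364, averaged -2.27 and -2.40 in YFP+ and YFP- cells of tumors and -3.53 and -3.54 in those of normal pancreas. Its differences, each probe fitted on its own, were 1.26 ± 0.48 (limma adjusted p = 0.11) and 1.15 ± 0.48 (limma adjusted p = 0.121), and neither was called. The dimmer probe read higher in tumor on average, with overlapping arrays, whereas the brighter probe did not.

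The array's own sequences are shown for the dimmer Ptges probe, which carries that disagreement, and for the probes of Hpgds and Alox15, which carry tissue differences. They are 60 bases long. On build mm9 the Ptges probe lies at chr2:30748214-30748273 and the Hpgds probe at chr6:65073550-65073609, both on the minus strand; the array file places the Alox15 probe at base 1426 of its transcript.
Ptges, dimmer probe: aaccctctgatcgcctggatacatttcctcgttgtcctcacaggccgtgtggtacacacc
Hpgds: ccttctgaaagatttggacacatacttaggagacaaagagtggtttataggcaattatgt
Alox15: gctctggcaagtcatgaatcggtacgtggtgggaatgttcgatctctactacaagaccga

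The receptor genes Ptger2 and Ptger4, which encode the EP2 and EP4 receptors of prostaglandin E2, were not called in any comparison. Ptger2 levels ran from -2.49 to -1.69 in tumor and from -2.83 to -0.92 in normal samples. Between YFP+ and YFP- macrophages of normal pancreas Ptger2 differed by 0.89 ± 0.29 (limma adjusted p = 0.37), and 1 of 3 YFP+ samples fell inside the YFP- range. Ptger4 levels ran from -1.87 to 0.18 in tumor and from -1.81 to -0.73 in normal samples. Its tumor minus normal difference was 0.62 ± 0.40 in YFP+ (95% interval -0.24 to 1.48) and 0.60 ± 0.40 in YFP- macrophages (-0.26 to 1.46).

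In the lipoxygenase branch, Alox15 rose in tumor in both populations and Alox5 fell in YFP+ macrophages. Alox15 encodes the 12/15-lipoxygenase, which in macrophages makes hydroxylated fatty acids and precursors of lipoxins. Its levels were 0.85, 0.57, 0.28, 1.01 and 1.23 in tumor YFP+ and 1.74, 0.31, -0.14, 1.58 and 1.75 in tumor YFP- samples. In normal pancreas they were -2.92, 0.038 and -1.37 in YFP+ and -2.90, -1.88 and -1.98 in YFP- samples. Within each population every tumor sample was above every normal sample, and normal YFP+ sample 23916 (0.038) came nearest to the tumor level.

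Alox15 was 9.86-fold higher in tumor than in normal YFP- macrophages (3.30 ± 0.58, limma adjusted p = 0.00133) and 4.61-fold higher in tumor than in normal YFP+ macrophages (2.20 ± 0.58, limma adjusted p = 0.0216). Without normal YFP+ sample 23916 the YFP+ difference was 2.93. The YFP+ call was lost without normal YFP+ sample 23912 (1.45, adjusted p = 0.133) or 23917 (2.23, adjusted p = 0.0684) and with slide as a block (2.01, adjusted p = 0.0609). Within slides the tumor level was higher on all 3 slides in both populations, by 0.53 to 4.15 in YFP+ and by 2.29 to 4.65 in YFP- macrophages. The neutrophil, mast cell and acinar sums given above differed between the same groups. Of 8 measured basophil and eosinophil genes, 3 rose in tumor YFP- against normal YFP- and 2 rose in tumor YFP+ against normal YFP+. The part of the cells of these lists in the Alox15 result was not tested.

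Alox5 levels were 0.65, 0.48, 0.046, 0.64 and 1.15 in tumor YFP+ samples, below all of the normal YFP+ samples, at 1.59, 2.52 and 2.01. They were 1.58, 0.49, 0.92, 1.85 and 1.40 in tumor YFP- samples, and 1.13, 2.69 and 2.72 in normal YFP- samples, of which number 23912 lay inside the tumor range. Alox5 fell 2.72-fold in tumor YFP+ against normal YFP+ macrophages (-1.45 ± 0.40, limma adjusted p = 0.0265). In YFP- macrophages the difference was -0.93 ± 0.40 (limma adjusted p = 0.13), which was not called; without the normal YFP- sample 23912 it was -1.46, with adjusted p = 0.0154. The YFP+ call was lost without normal YFP+ sample 23916 (-1.21, adjusted p = 0.137) or 23917 (-1.46, adjusted p = 0.0787) and without tumor YFP+ sample 23550 (-1.31, adjusted p = 0.0616). That the change in Alox5 differs between the populations was not shown: the difference of differences was -0.52 ± 0.56 (limma adjusted p = 0.926).

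Alox5ap, which presents arachidonic acid to 5-lipoxygenase, averaged 3.25 and 3.19 in YFP+ and YFP- cells of tumors and 3.87 and 3.59 in those of normal pancreas. The tumor YFP+ samples (3.14 to 3.30) were all below the normal YFP+ samples (3.69 to 4.04), yet the difference of -0.62 ± 0.20 just missed the threshold (limma adjusted p = 0.0567). It passed under 8 of 27 alternatives, among them quantile normalization (-0.85, adjusted p = 0.0109) and slide as a block (-0.69, adjusted p = 0.0315). Under the other 19 it stayed uncalled, with adjusted p up to 0.209. In YFP- macrophages it was -0.41 ± 0.20 (limma adjusted p = 0.188).

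Ltc4s, the leukotriene C4 synthase gene, varied more among normal samples than between groups. Its levels ran from 2.89 to 4.22 in tumor samples. In normal pancreas they were 2.62, 4.52 and 3.66 in YFP+ and 2.65, 4.66 and 4.57 in YFP- cells, with number 23912 lowest in either group. The tumor minus normal difference was -0.24 ± 0.49 in YFP+ (95% interval -1.28 to 0.80) and -0.29 ± 0.49 in YFP- macrophages (-1.33 to 0.75).

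Counting genes whose arrays did not overlap between tissues, 4 of 10 did not overlap in YFP+ macrophages (Hpgds, Alox5, Alox5ap and Alox15), where 22% of all genes did not, and 4 of 10 in YFP- macrophages (Ptgs1, Ptgs2, Hpgds and Alox15), where 19.7% of all genes did not. The median difference of the 10 genes was -0.12 in YFP+ and 0.038 in YFP- macrophages, beside -0.043 and -0.16 over all genes tested. With normexp background correction the called genes of the YFP- comparison split as 62.2% higher, against 51.2% with the processed signals.

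**Figure D3:**
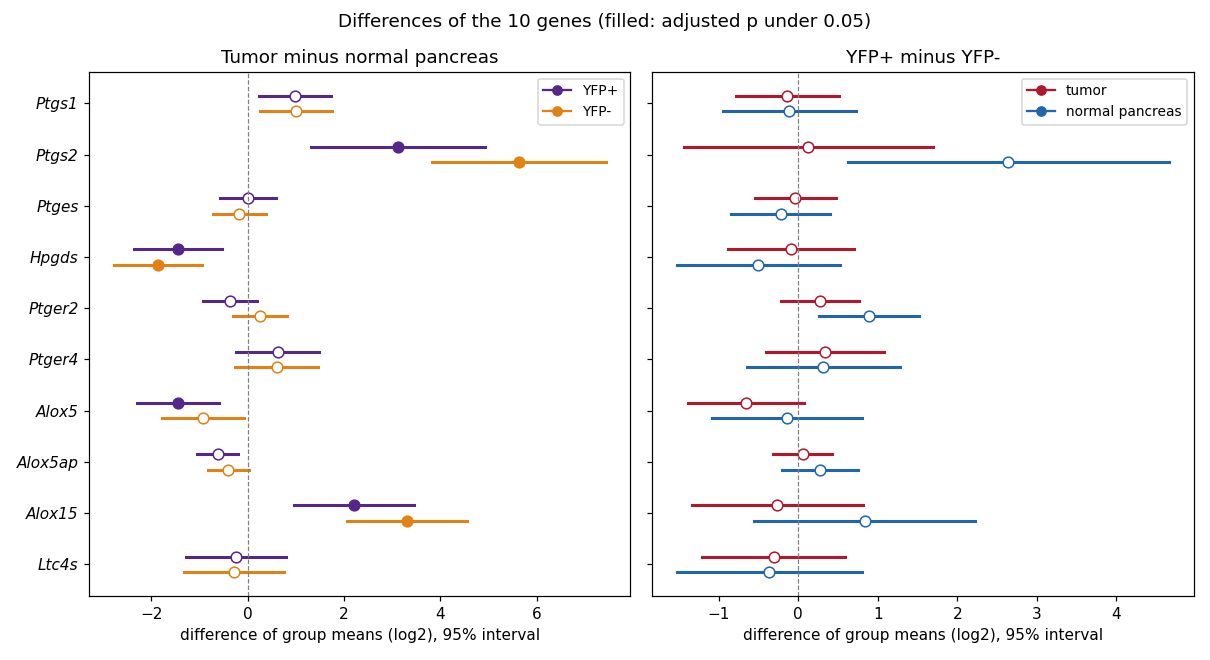
Difference of group means (log2) with its 95% interval for the 10 genes, tumor minus normal pancreas in each population (left) and YFP+ minus YFP- in each tissue (right); filled points have an adjusted p under 0.05. Filled points appear only on the left, for Ptgs2, Alox15 and Hpgds in both populations and for Alox5 in YFP+ macrophages.

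Between tumor YFP+ and tumor YFP- macrophages the 10 differences ran from -0.66 (Alox5, 95% interval -1.39 to 0.077) to 0.34 (Ptger4, -0.41 to 1.08), and none of the 10 was without overlap in tumor or in normal pancreas, where 4.35% and 13.2% of all genes were. The interval for Ptgs2 in tumor was wide, from -1.43 to 1.69. In the same comparison the mast cell list fell for 6 of 10 genes and the fibroblast and stellate cell list for 8 of 10 in YFP+ samples, as did 6 of 9 ductal and epithelial and 4 of 10 acinar genes. Of the B and plasma cell list, 2 of 8 genes were higher in YFP+ samples (median difference of the 8, 2.23). Mast cell sums were 3.17 to 7.34 in tumor YFP+ against 16.3 to 65.0 in tumor YFP- samples. In normal pancreas the largest difference was that of Ptgs2, at 2.64 ± 0.94 (limma adjusted p = 0.433). Without the YFP+ sample 23912 it was 1.08. The difference between the populations in the size of the Ptgs2 tissue change was -2.51 ± 1.19 (limma adjusted p = 0.842), so the larger fold in YFP- macrophages was not shown to differ from that in YFP+ macrophages. No gene of the 10 was called for such a difference, where 0.0982% of all genes were, and 0 of 10 passed at an unadjusted p under 0.05.

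Samples of a group varied together in several of these genes. Both normal samples numbered 23912 were low in Ptgs1, Ltc4s, Alox5, Alox5ap, Alox15 and Hpgds and high in Ptgs2, set against the mean of the other 2 samples of their group: by -1.47 and -1.97 for Ltc4s, -2.25 and -0.96 for Alox15, and 4.69 and 1.48 for Ptgs2, in YFP+ and YFP- macrophages. These samples also had the lowest macrophage marker sums of their groups. The sums were 205 against 293 and 319 in YFP+, and 180 against 356 and 367 in YFP- samples. The part of such a shift of the whole sample in these genes was not tested. Over all 16 arrays, deviations from the group means correlated at r = 0.94 for Alox5 with Ltc4s and 0.89 for Ptgs1 with Ltc4s. Without the 2 arrays of number 23912 these were 0.92 and 0.72 over 14 arrays. These correlations describe arrays that share slides and scaling and carry no test.

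The genes whose levels over the 16 arrays were most like those of the 3 genes with the widest group means were picked by Pearson's r. For Ptgs2 they were Hmgcs1, Mvd, Havcr2, Gm6460 and Mospd4 (r = 0.952 to 0.967), but by rank the likeness was looser, with Spearman's rho of 0.62 (Mvd) to 0.80 (Havcr2). For Alox15 they were Acly, Lrg1, Msrb1, Ctsd and Il6 (0.948 to 0.965; rho 0.88 to 0.97). For Hpgds they were Fyb, Zfp90, Adgre1, Tnfsf12 and Epor (0.949 to 0.953; rho 0.88 to 0.91). All arrays fall in 4 groups, so a shared tissue difference raises these values. Within groups, r of the deviations was 0.76 to 0.90 for the 15 genes. These genes were picked on the same 16 arrays, which raises that r too, so it is no separate sign of likeness. For Ptgs2 it also leans on normal YFP+ sample 23912, which deviated by 3.12 from its group mean.

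The rest of the pathway was read from 53 further genes in 7 lists, of which 47 passed the filter. Of the 47, 5 rose and 4 fell in tumor YFP+ against normal YFP+, where 12.1% of all genes were called, and 7 rose and 5 fell in tumor YFP- against normal YFP-, where 15.8% were. Between YFP+ and YFP-, 2 fell in tumor (2.39% of all genes were called) and none was called in normal pancreas (0.0205%). The median difference of the 47 was 0.019 in YFP+ and 0.040 in YFP- macrophages, beside -0.043 and -0.16 over all genes tested. In total 16 genes were called in at least 1 comparison.

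Of the list for prostanoid breakdown and transport, 1 of 5 genes was called between tissues. Hpgd, which encodes the dehydrogenase that inactivates prostaglandin E2, averaged -1.73 and -1.74 in YFP+ and YFP- cells of tumors and 2.23 and 2.78 in those of normal pancreas. All tumor samples, at -0.83 or below, were under all normal samples, at 1.70 or above. Hpgd fell 15.6-fold in YFP+ (-3.96 ± 0.68, limma adjusted p = 0.00123) and 23.1-fold in YFP- macrophages (-4.53 ± 0.68, limma adjusted p = 3.8e-04). Tumor YFP- sample 23550, at -4.47 and not well above background, lay far below the other 4; without it the YFP- difference was -3.85, still called.

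Among the prostanoid receptors, Ptgdr2, the CRTH2 receptor of prostaglandin D2, rose and Ptgir, the prostacyclin receptor, fell. Ptgdr2 levels lay between 0.21 and 0.97 on all tumor arrays and between -1.29 and -0.53 on all normal arrays, with no overlap. It rose 3.47-fold in YFP+ (1.80 ± 0.20, limma adjusted p = 3.4e-05) and 2.46-fold in YFP- macrophages (1.30 ± 0.20, limma adjusted p = 4e-04). The basophil and eosinophil list rose for 2 of 8 and 3 of 8 genes in these comparisons, and its part in the Ptgdr2 result was not tested. Ptgir fell in YFP+ (-3.34 ± 0.44, limma adjusted p = 2.3e-04; 2 of the 3 normal YFP+ arrays gave a value) and in YFP- macrophages (-1.92 ± 0.39, limma adjusted p = 0.00419), without overlap. Ptger3, the EP3 receptor gene, was lower in tumor YFP+ than in tumor YFP- samples (-3.04 ± 0.70, limma adjusted p = 0.0309). It was well above background on 2 of 5 tumor YFP+ arrays. A second Ptger3 probe, fitted on its own, gave -2.01 there and was not called (limma adjusted p = 0.0865). The mast cell and fibroblast lists were also lower in tumor YFP+ samples. From normal to tumor YFP- samples those lists rose for 8 of 10 and 4 of 10 genes. Ptger3 differed by -0.55 there and was not called. The part of these cells in the Ptger3 result was not tested.

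The list for arachidonate release and lipid turnover had 11 measured genes, not all of which release arachidonate. Of these, Pla2g2d, a secreted phospholipase A2 gene, fell in YFP+ (-3.11 ± 0.57, limma adjusted p = 0.00189) and in YFP- macrophages (-5.25 ± 0.57, limma adjusted p = 2.3e-05). Its tumor levels, -3.51 to -0.33, were all under its normal levels, 1.20 to 3.64. Without normal YFP- sample 23912 the YFP- difference was -6.02. Pla2g7 (1.09 ± 0.33; 0.81 and not called with its other probe, limma adjusted p = 0.098) and Pla2g12a (0.97 ± 0.30) rose in YFP+ macrophages. Lpcat2, an acyltransferase gene, measured 2.67 higher in tumor YFP+ than in normal YFP+ samples (limma adjusted p = 0.00932). Its probe was well above background on 3 of 5 tumor YFP+ arrays and on no normal array. Set against the dimmest signal still above background on each normal array, the tumor YFP+ mean was 1.55-fold higher, or 1.20 to 2.09 with single samples left out. That fold was not tested, and it is not a strict bound because the tumor mean includes arrays not well above background. Acsl4 (0.73 ± 0.21) and Lpcat3 (0.53 ± 0.16) rose in YFP- macrophages. The 4 probes of Mgll, the monoacylglycerol lipase gene, disagreed. The brightest was called higher in tumor YFP- than in normal YFP- samples (1.09 ± 0.33), while the others, each fitted on its own, gave -0.25, 0.26 and 2.11 and were not called. It was also called lower in tumor YFP+ than in tumor YFP- samples (-1.27 ± 0.28, limma adjusted p = 0.0274), where the others gave -2.13, -0.35 and -0.32 and were not called. That call was lost with the replicate block (adjusted p = 0.124) and with slide as a block (-1.21, adjusted p = 0.0802), and the tissue call with slide as a block (1.07, adjusted p = 0.0749).

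Among 9 measured enzymes of leukotriene synthesis and turnover, Ggt1, which encodes a gamma-glutamyltransferase that converts leukotriene C4, was not well above background on any tumor array. Its measured tumor minus normal difference was -4.24 in YFP+ (limma adjusted p = 4.5e-04) and -3.97 in YFP- macrophages (limma adjusted p = 6.3e-04). It was at least 4.54-fold lower in tumor YFP+ and at least 4.85-fold lower in tumor YFP- samples than in the matching normal samples. These bounds, not themselves tested, set the normal mean against the dimmest signal still above background on each tumor array. Its normal YFP- levels were uneven, at -4.38, -1.67 and -0.52, and the YFP- bound was 2.72-fold without normal sample 23917 and 10.4-fold without 23912. Ggt1 is also expressed in acinar tissue, whose marker list fell with it, and the part of acinar RNA was not tested. Lta4h, the leukotriene A4 hydrolase gene (0.97 ± 0.29), and Mgst2 (3.67 ± 1.16) rose in YFP- macrophages, while Dpep1, a dipeptidase gene that acts on leukotriene D4, fell (-1.88 ± 0.53). Mgst2 was well above background on 1 of 3 normal arrays in either population, and its YFP- difference was 2.70 without normal sample 23917 (adjusted p = 0.18) and 5.22 without 23912. Of 6 measured receptors of leukotrienes and lipoxins, Fpr2 rose in YFP+ (1.54 ± 0.46) and in YFP- macrophages (1.63 ± 0.46). None of the 8 other prostanoid synthases or the 3 other lipoxygenases measured was called in any comparison.

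The calls for Hpgd, Pla2g2d, Ptgdr2, Ptgir and Ggt1 held in both populations under every alternative that gave them a value, 26 or 27 each. Lpcat2 lost its call with normexp background correction (1.14, adjusted p = 0.0609). Each of the other calls was lost under 4 to 17 of 27 alternatives, with its direction kept; without the sample numbered 23912 of the normal group compared, Fpr2 was 1.09 in YFP+ (adjusted p = 0.215) and 0.998 in YFP- macrophages (adjusted p = 0.133), and without normal YFP- sample 23917 Dpep1 was -1.24 (adjusted p = 0.138). It was -2.71 without 23912.

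**Figure D4:**
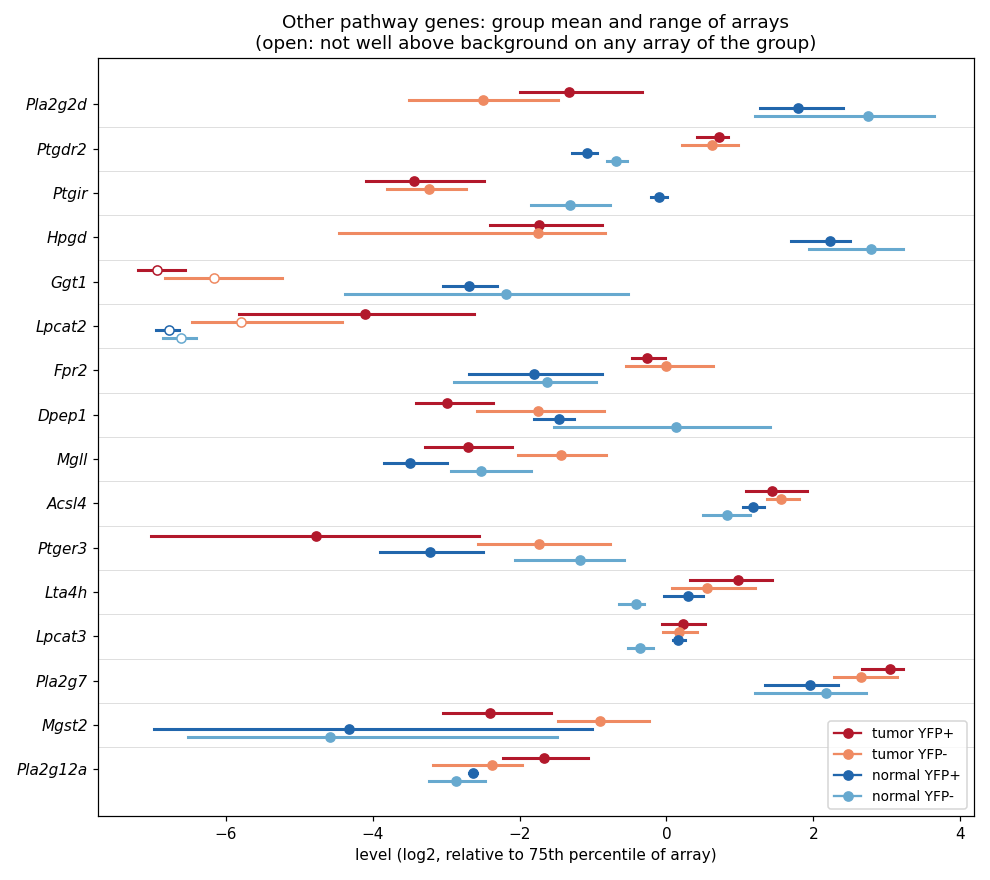
Group mean (point) and range of the arrays (line) of the 16 other pathway genes called in at least 1 comparison, as log2 level relative to the array's 75th percentile; open points mark groups with no array well above background. Hpgd and Pla2g2d lie lower in both tumor groups than in both normal groups, and Ptgdr2 lies higher.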

How the data were processed

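Per the file headers, the deposited scanner files hold red-channel intensity values of Agilent Feature Extraction (version 11.5.1.1, per the submitters' processing notes), background subtracted within each array. The authors' deposited table holds normalized log2 values of the same arrays, whose method is not given in the sources used here; its columns correlated with their own array's processed signal at r = 0.9957 to 0.9999 (median value 9.02), and it served as an alternative. RNA was amplified with Sigma WTA2 and labelled with Cy5, per the labels. Here log2 processed signals were set against each array's 75th percentile, flagged outlier spots were dropped, spots of a probe were averaged, and probes well above background on at least 3 of 16 arrays were kept. The brightest probe stood for each gene. A limma fit (version 3.58.1, R 4.3.3) of 4 group means gave 5 comparisons, with Benjamini-Hochberg adjustment over 24440 genes; it was tested on simulated data. The number of arrays limits the precision. Alternatives were quantile normalization, normexp background correction, the deposited values, other filters, the mean of a gene's probes, slide and replicate as blocks, array weights and leaving out each sample; leaving out both samples numbered 23912, complete probes only and each probe alone were added after seeing the data. Other genes of the pathway were named where called in at least 1 comparison. The genes and lists were chosen with earlier results of these data known.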

Additional observations from a re-analysis of the deposited data

Results flagged for a closer look

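Hpgd in tumor YFP- macrophages had a single sample far from the other 4. Sample 23550 was at -4.47 and not well above background, and the others lay between -1.22 and -0.83, so that its gap to the nearest made up 0.893 of the group's range. Of 52 groups examined in this way, 1 stood out, where chance gives about 1 in 20. Without it the tumor minus normal YFP- difference in Hpgd was -3.85 in place of -4.53, and was still called. The same sample did not stand apart in this way for any of the 10 prostaglandin and leukotriene genes.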

How the results depend on the processing

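Ptgs2 and Alox15 kept their calls in tumor YFP- against normal YFP- macrophages under all 27 alternatives, at 3.73 to 6.12 and 2.84 to 3.60. The other calls of the 10 genes were each lost under 1 to 9 alternatives, and none changed direction. The brighter Ptges probe gave a tumor minus normal difference in YFP+ macrophages of -0.29 with quantile normalization, -0.83 in the deposited values and -0.093 to 0.11 when single samples were left out. In YFP- macrophages the mean of both Ptges probes gave 0.49; with complete probes only, the dimmer probe stood for the gene and gave 1.15. Ltc4s changed sign when single samples were left out, at -0.73 to 0.22 in YFP+ and -0.95 to 0.059 in YFP- macrophages. The remaining differences of the 10 genes, between populations and between their tissue changes, were refitted under the same 27 alternatives, which gave 675 values. Of these values, 56 had a changed sign, none of them past the threshold. The causes were not tested.

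Of all genes, the number called between YFP+ and YFP- macrophages of normal pancreas was 5, and it became 16 with quantile normalization, 0 with normexp background correction, 15 in the deposited values, 10 with no filter, 2 with slide as a block, 0 with the replicate block, 1168 with array weights, 222 without both samples numbered 23912 and 0 to 335 when single samples were left out. With array weights 1 of the 10 genes, Ptger2, was called there (0.89, adjusted p = 0.0451). Array weights raised the tumor YFP+ against normal YFP+ count from 2958 to 4497 and the tumor YFP- against normal YFP- count from 3854 to 9335, with 6 of the 10 genes called in the latter; the ranges without single samples were 1977 to 3249 and 2416 to 4771, with 0 to 5 and 3 to 4 of the 10 genes called. The count for the difference between populations was 24, and 9 with slide as a block, 358 with array weights, 42 without both samples numbered 23912 and 9 to 64 without single samples; it was 585 between the tumor populations, and 428 to 654. The numbers were not taken to pair the samples: of 8 pairs, 4 had a correlation of deviations over 0.1 and 4 did not (-0.29 to 0.31), and 1 pair, number 23912, was best with its own number (0.27). The replicate block changed no call of the 10 genes. All of those calls are between tissues, where this block used a correlation within a number of 0.028, so it could change little. Between YFP+ and YFP- samples the number was a fixed term of the fit. With 3 samples in each normal group, leaving out 1 leaves 2.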
